A study of Mus musculus with 4 samples.

Results

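The MYC and MAX network is a set of 10 genes for related transcription factors: the activators Myc, Mycn and Mycl, their shared partner Max, and the antagonists Mxd1, Mxi1, Mxd3, Mxd4, Mnt and Mga. Members were taken by gene symbol, through every probe set annotated to 1 member and no other gene. That gave 24 probe sets for 9 of the 10 genes, out of 17097 named genes in all. Max had no probe set annotated to it alone and was not analysed here. Each gene was represented by its brightest probe set, judged by the mean of all 4 arrays.

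The cells were B16F10, a mouse melanoma line derived from C57BL/6 mice. Controls received MilliQ water (0 µM plumbagin), and treated cells received 2 µM plumbagin, a plant naphthoquinone that can undergo redox cycling, for 24 h. Each group had 2 arrays, named here control 1, control 2, plumbagin 1 and plumbagin 2 after the numbers in the titles. No allele, transgene or other agent is named in the labels, and nothing in them tells separate cultures from repeat samples of 1 culture. The p-values therefore cover only the spread between these samples. Values were log2 expression values, so a difference of 1 is a doubling.

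MYC proteins bind DNA as pairs with MAX and raise transcription of genes for ribosome assembly, nucleotide synthesis and cell growth. MXD proteins, MXI1 and MNT also pair with MAX, compete for the same sites and recruit SIN3 and histone deacetylases, while MGA joins a Polycomb complex. Myc mRNA and protein are short-lived, and in melanocytic cells MYC is known for sustaining proliferation. The preferred binding site is the E-box, CACGTG, which is its own reverse complement.

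E-box sites near the start of network genes are shown first, since they are the sequence that the whole family reads. In RefSeq promoter windows of build GRCm38.p6, from 250 bases before to 50 bases after a start site (300 bases), 3 of the 9 network genes that have a window held a CACGTG: Max, Mxd4 and Mnt. Counted by window, that was 3 of 11 (27.3%), against 7.15% of all 32851 windows. Myc was the network gene with no window given. The sites are printed 5′ to 3′ along the gene's strand with the E-box in capitals and up to 20 bases on each side, followed by 1 of the 4 sites of Cdk4 and 1 of the 3 sites of Apex1, from the list of genes activated by MYC.
Max, chr12:76962226-76962271, minus strand: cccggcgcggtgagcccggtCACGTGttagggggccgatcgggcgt
Mxd4, chr5:34187904-34187949, minus strand: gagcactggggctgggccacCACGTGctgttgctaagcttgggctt
Mnt, chr11:74830781-74830826, plus strand: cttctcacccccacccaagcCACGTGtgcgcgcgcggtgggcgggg
Cdk4, chr10:127063504-127063549, plus strand: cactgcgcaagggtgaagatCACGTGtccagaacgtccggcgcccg
Apex1, chr14:50924905-50924950, plus strand: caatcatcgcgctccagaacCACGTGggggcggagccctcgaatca
Among the 3 network genes, the Max site lay closest to its start, with its first base at position -3 counted from the start site as 0. Those of Mnt and Mxd4 began at -123 and -219. A match is a description of the letters and says nothing about binding in these cells.

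The label of the cells was checked against marker genes. All 8 melanocyte markers were bright, with mean log2 values from 10.85 to 12.32. Fibroblast markers were above the background level in 0 of 6 genes, leukocyte markers in 1 of 5 (Cd3e), endothelial markers in 1 of 4 (Kdr) and epithelial markers in 0 of 5. The background level was 5.05, the 95th percentile of 41 odorant receptor genes. Plumbagin 1 stood apart from the other arrays in the 18 bacterial and phage spike-in probe sets added before hybridization, where it averaged 9.58 while the others averaged 8.46 to 8.77 (log2), and in its upper quartile of 6.26 against 6.34 to 6.36. The part of this in the values below was not tested. The gap between the 3′ and 5′ probe sets of beta-actin, a measure of RNA integrity, was 0.47 and 0.50 in the controls and 0.56 and 0.52 in plumbagin 1 and 2, higher on both treated arrays. That of Gapdh was -0.02 and 0.01 in the controls and 0.0051 and -0.03 with plumbagin, with overlapping groups. The part of RNA integrity in the values below was not tested.

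Within the network, the difference between plumbagin and control was lowest for Myc, at -0.32, and highest for Mga, at 0.35, and the other 7 measured genes differed by 0.12 or less in size (log2). None of the 9 measured members passed limma's test (adjusted p = 1 for each over 17097 genes), and none had an unadjusted p under 0.05. Across all genes limma called 0 (0%) at an adjusted p of 0.05, and 169 (0.988%) had an unadjusted p under 0.05. With 2 arrays against 2, an exact permutation test of a single gene cannot go below 0.333. Both plumbagin arrays lay above both controls in 2 of 9 members, Mycn and Mxd4, against 10.2% of all genes and 5.66% of the 8637 genes above background. They lay below both controls in 0 of 9, against 15.2% of all genes and 18.3% of those above background.

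**Figure D1:**
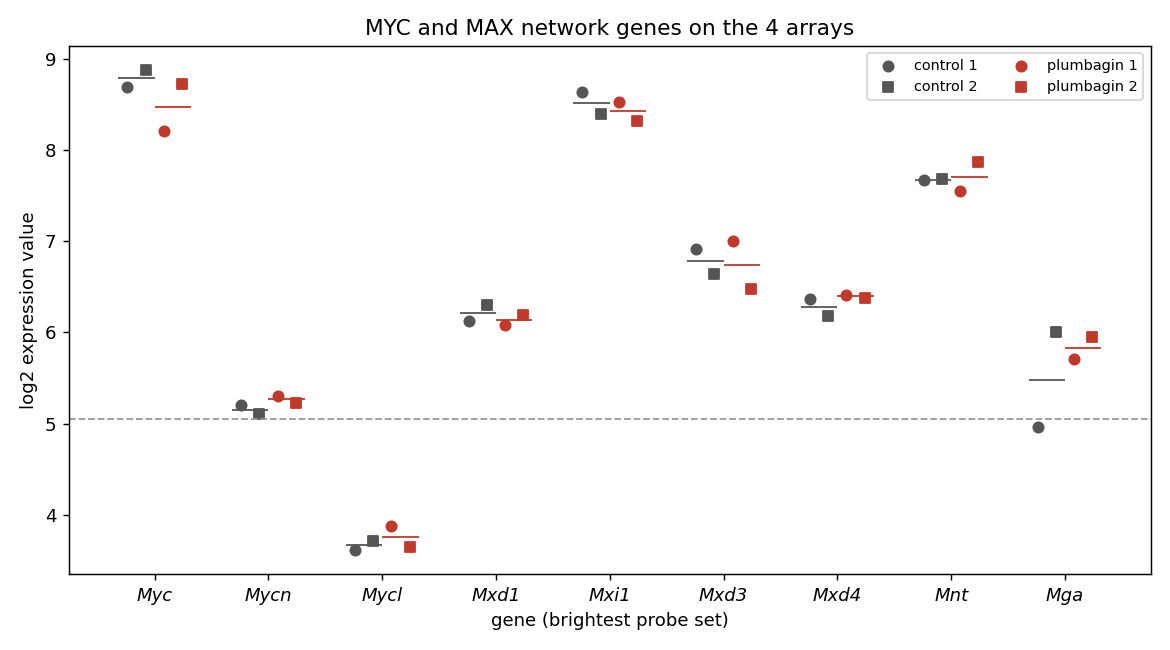
Log2 expression values (vertical axis) of the brightest probe set of each measured network gene (horizontal axis) on the 4 arrays, with grey points for controls, red points for plumbagin, circles for number 1, squares for number 2, short lines for group means and a dashed line at the background level of 5.05. Plumbagin 1 is the lowest Myc point at 8.21 and control 1 the lowest Mga point at 4.96; heights are not comparable between genes because probe sets differ in how they hybridize.

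Myc, the family's best known activator, read 8.69 in control 1 and 8.88 in control 2, against 8.21 in plumbagin 1 and 8.72 in plumbagin 2 (log2). Plumbagin 1 was the lowest array, and plumbagin 2 lay just above control 1, so the groups overlapped. In a bulk sample, fewer cells with the transcript and less transcript per cell cannot be told apart. The mean difference was -0.32 ± 0.20 (log2, SE, n = 2 per group), or 1.25-fold lower, with a 95% interval from -0.86 to 0.22 (limma). Without plumbagin 1 the difference was -0.06, and without plumbagin 2 it was -0.57, so its size depended on which treated array was used.

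Within the replicate numbers Myc was lower both times, by -0.48 between plumbagin 1 and control 1 and by -0.16 between plumbagin 2 and control 2. Control 1 was also below control 2, by -0.19, which is larger in size than the difference within number 2. The 1375 genes whose mean lay within 0.5 of that of Myc had a median difference of -0.13 in number 1 and of -0.01 in number 2. After cyclic loess, which removes differences between arrays that depend on brightness, Myc differed by -0.35 and -0.16. In size, its mean difference exceeded that of 94.6% of the genes above background. Myc was read by 1 probe set, so no further one was at hand for comparison.

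The paralogs Mycn and Mycl, activators known from neural and lung tissue, were near or below the background level. Mycn had values of 5.21 and 5.10 in the controls and of 5.30 and 5.22 with plumbagin. Both plumbagin arrays were higher, by a mean of 0.11 ± 0.09 (95% interval -0.13 to 0.35). The difference was 0.10 within number 1 and 0.12 within number 2, as large as the gap of 0.10 between the controls. A dimmer Mycn probe set, with values of 4.79 and 5.11 in the controls and of 5.17 and 5.04 with plumbagin, overlapped between the groups.

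Mycl read 3.61 and 3.72 in the controls and 3.88 and 3.64 with plumbagin, below the background level on every array. Its difference of 0.10 ± 0.12 is therefore one between dim signals.

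Among the antagonists, Mxi1 and Mxd1 had slightly lower means. Mxi1, a MAX partner that represses MYC targets, read 8.64 in control 1, 8.40 in control 2, 8.53 in plumbagin 1 and 8.32 in plumbagin 2. Both arrays with number 1 were higher than both with number 2, whatever the treatment. The difference was -0.09 ± 0.13, and the control gap of 0.25 exceeded it.

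A second Mxi1 probe set, dimmer but above background, gave values of 6.34 and 6.05 in the controls and of 5.82 and 6.002 with plumbagin. Here both plumbagin arrays lay below both controls, with a mean difference of -0.28 ± 0.14 (limma adjusted p = 1, every probe set tested on its own). Most of that came from number 1, at -0.51, against -0.04 in number 2. RefSeq lists 3 promoter windows for Mxi1, none with a CACGTG, and the annotation does not say which Mxi1 transcript each probe set reads.

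Mxd1, an antagonist induced as many cell types differentiate, had values of 6.12 and 6.30 in the controls and of 6.08 and 6.19 with plumbagin. The arrays with number 2 were the higher ones in each group. The difference was -0.08 ± 0.10, with -0.05 within number 1 and -0.11 within number 2. Without control 2 it was 0.0077.

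Mxd4, which is also linked to differentiation, read 6.37 and 6.18 in the controls and 6.42 and 6.37 with plumbagin. Plumbagin 2 exceeded control 1 only in the third decimal, so the separation of the groups is slight. The difference was 0.12 ± 0.10 (95% interval -0.15 to 0.39), and it was 0.02 without control 2. A second Mxd4 probe set above background, with values of 6.21 and 5.65 in the controls and of 6.05 and 5.82 with plumbagin, differed by 0.0042 and overlapped.

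The 2 dimmest Mxd4 probe sets, both below background, went opposite ways, with 0.18 ± 0.10 and -0.07 ± 0.08, each with groups apart. Over the 4 Mxd4 probe sets there was thus no common direction, but the only negative difference came from a probe set below background.

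Mxd3, the family member tied to dividing cells and S phase, followed the replicate numbers. It read 6.92 in control 1, 6.64 in control 2, 7.00 in plumbagin 1 and 6.48 in plumbagin 2. Both arrays with number 1 were higher than both with number 2, by 0.28 between the controls and 0.52 between the plumbagin arrays. The difference with plumbagin was -0.04 ± 0.21, with 0.08 in number 1 and -0.17 in number 2. Its sign turned with probe sets averaged and with quantile or cyclic loess normalization, to values of at most 0.021. The other 2 Mxd3 probe sets, one just above background and one below, showed the same pattern, with number 1 higher in each group.

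Mnt, a broadly expressed MAX partner that counters MYC, had the closest controls of the network, at 7.67 and 7.68, with plumbagin arrays at 7.55 and 7.86. The plumbagin arrays lay on both sides of the controls. The mean difference was 0.03 ± 0.13 (95% interval -0.32 to 0.38), made of -0.11 in number 1 and 0.18 in number 2.

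Mga, the large MAX partner of the Polycomb complex PRC1.6, had the widest spread. It read 4.96 in control 1, 6.004 in control 2, 5.71 in plumbagin 1 and 5.95 in plumbagin 2. Control 1 was the low array, below the background level, and the other 3 lay well above it. The difference of 0.35 ± 0.37 (95% interval -0.65 to 1.35) was 0.75 in number 1 and -0.06 in number 2, and -0.17 without control 1. The gap of -1.04 between control 1 and control 2 was larger in size than that of 98.5% of genes above background. The other Mga probe set above background had the same order, with 5.10 and 5.56 in the controls and 5.37 and 5.55 with plumbagin.

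**Figure D2:**
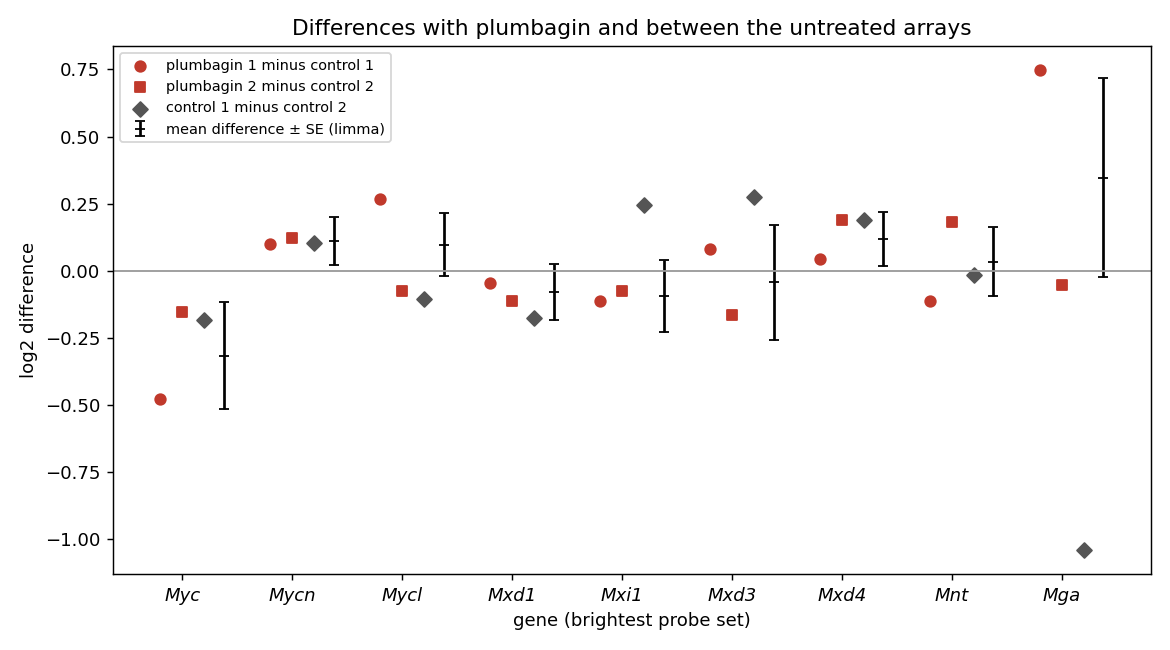
Log2 differences (vertical axis) for each measured network gene: plumbagin minus control within number 1 (red circles) and number 2 (red squares), control 1 minus control 2 (grey diamonds), and the mean difference with its SE from limma (black). The grey diamond of Mga, at -1.04, is farther from 0 than any red point, and Myc, Mxd1 and Mxi1 are below 0 in both numbers.

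Across the network, the sign of the difference was the same in both numbers for 5 of 9 members: Myc, Mxd1 and Mxi1 lower, Mycn and Mxd4 higher. Of all 17097 genes, 4951 were lower and 3707 higher in both numbers, and of the 8637 above background, 3175 and 1458. After cyclic loess, Mxd1 and Mxi1 were no longer lower in number 1, at 0.060 and 0.018. In 6 of 9 members the gap between the untreated arrays was larger in size than the mean difference with plumbagin. A gap between single arrays varies more than a difference between means of 2 arrays, so this count cannot tell an effect from none. The gap between the 2 plumbagin arrays had the sign of the control gap in 8 of 9 members, with Mycl as the exception. Neither count was made over all genes, so both describe the members alone. Whether responses differed between the numbers was not tested, since each number holds 1 array per group. The members' median difference was 0.03, against -0.01 for all genes. For the 8 members above background it was -0.0048, against -0.05 for all genes above background.

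**Figure D3:**
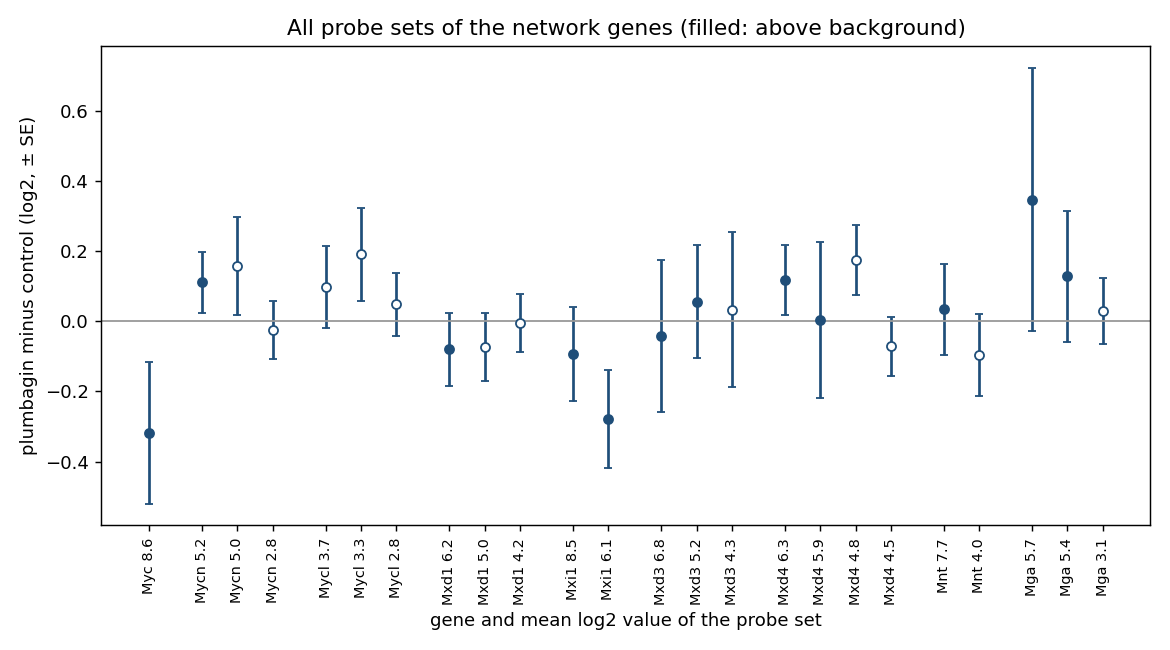
Mean difference between plumbagin and control (log2, with SE from limma) for each of the 24 probe sets of the network, labelled by gene and mean log2 value and filled where the mean is above background. Of the 12 filled points, those of Myc and of the dimmer Mxi1 probe set are the lowest, at -0.32 and -0.28, and that of the brightest Mga probe set is the highest, at 0.35 with the widest error.

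Of 14 listed coactivators of MYC 11 were measured, and 9 of these (81.8%) had a lower mean with plumbagin and 2 a higher one. Over all genes 55.2% had a lower mean, and over those above background, where 10 of the 11 lie, 65.1%. The list's median was -0.13, against -0.01 over all genes and -0.05 over those above background, and it was -0.0016 without control 1 and -0.25 without control 2. Both plumbagin arrays lay below both controls in 4 of 11, against 15.2% of all genes and 18.3% of those above background. No gene of this list passed limma's test. Kat2a, a histone acetyltransferase that MYC recruits, had values of 7.53 and 6.88 in the controls and of 6.67 and 6.69 with plumbagin, a difference of -0.53 ± 0.24. Control 1 was the high array there, and within number 2 the difference was -0.19. Zbtb17, which encodes the MYC partner MIZ1, differed by -0.27 ± 0.14, with 7.53 and 7.59 in the controls and 7.12 and 7.47 with plumbagin. Ccnt1, a subunit of the elongation kinase P-TEFb, differed by 0.07 ± 0.11. The list's median was -0.19 within number 1 and -0.06 within number 2.

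The corepressors that MXD proteins bring to DNA showed no common direction. Of 8 measured SIN3 and histone deacetylase genes, 4 had higher and 4 lower means, with a median of 0.0013 that ranged from -0.12 without plumbagin 1 to 0.13 without plumbagin 2. Sin3a and Sin3b, the scaffolds of the complex, differed by -0.15 ± 0.23 and -0.12 ± 0.19, and the histone-binding subunits Rbbp7 and Rbbp4 by 0.09 ± 0.15 and 0.07 ± 0.13. Between the untreated arrays, control 1 exceeded control 2 for this list, with a median gap of 0.24. In no member did the groups separate. All 8 were above background, where both plumbagin arrays lay below both controls in 18.3% of genes and above them in 5.66%.

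Of the 9 genes of the MGA complex, 4 had higher and 5 lower means, with a median of -0.08 that ranged from -0.050 without plumbagin 2 to 0.039 without control 2 when 1 array was left out. Cbx3, the heterochromatin protein HP1 gamma, differed by 0.16 ± 0.11, with 11.05 and 11.09 in the controls and 11.34 and 11.13 with plumbagin. Ring1, a ubiquitin ligase subunit, differed by -0.15 ± 0.08 with its groups apart. L3mbtl2 differed by -0.16 ± 0.16 and Yaf2 by 0.06 ± 0.09, both overlapping.

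Genes for the phosphorylation and turnover of MYC protein had lower means in 8 of 13 measured members (61.5%), all above background, where 65.1% of genes were lower. The median was -0.11, and with 1 array left out it ranged from -0.16 without control 2 to 0.022 without control 1, with -0.033 without plumbagin 1 and -0.022 without plumbagin 2. Fbxw7, the ubiquitin ligase receptor that marks MYC for degradation, differed by 0.05 ± 0.09, and Gsk3b, the kinase that prepares MYC for it, by 0.07 ± 0.12. Usp36, a nucleolar deubiquitinase of MYC, differed by -0.26 ± 0.20, with -0.54 in number 1 and 0.01 in number 2. Stub1, a chaperone-linked ubiquitin ligase, differed by -0.17 ± 0.11. The median was -0.19 in number 1 and 0.0089 in number 2.

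The MLX branch, a parallel set of partners that senses glucose, was measured whole. Mlx differed by -0.08 ± 0.12, Mlxip by -0.06 ± 0.11 and Mlxipl, which was below background, by -0.03 ± 0.09. All 3 were lower in number 1 and higher in number 2.

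Genes commonly activated by MYC had lower means in 36 of 45 measured members of 50 listed (80.0%), with a median of -0.10. Of all genes 55.2% were lower, and of those above background, where 42 of the 45 lie, 65.1%. Both plumbagin arrays lay below both controls in 10 of 45, against 15.2% of all genes and 18.3% of those above background, and above them in 3 of 45, against 10.2% and 5.66%. Many of them make ribosomes, and the list was chosen when lower values of ribosome assembly genes in these arrays were already known, so its direction is not independent evidence. No member passed limma's test. Against 0.988% of all genes and 122 of the 8637 above background, 1 of the 45 members had an unadjusted limma p under 0.05. That member was Srm, spermidine synthase, with values of 8.93 and 8.67 in the controls and of 8.45 and 8.50 with plumbagin, a difference of -0.33 ± 0.12. Mrto4, a ribosome assembly factor, had 8.60 and 8.49 in the controls and 8.07 and 8.40 with plumbagin, a difference of -0.31 ± 0.14.

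Not all of these genes were lower. Tfrc, the transferrin receptor, had 6.83 and 6.99 in the controls and 7.06 and 7.48 with plumbagin, a difference of 0.36 ± 0.17, and Ppat, an enzyme of purine synthesis, differed by 0.17 ± 0.08 with its groups apart. Within number 1 the list's median was -0.18, with 34 of 45 members lower, and within number 2 it was -0.04, with 29 of 45 lower. Genes above background had medians of -0.11 and -0.0016 in the same numbers, and 5969 and 4378 of these 8637 genes were lower. Of all 17097 genes, 9497 and 8798 were lower. The untreated arrays also differed for this list, control 1 exceeding control 2 with a median gap of 0.13, and the list's median was -0.03 without control 1. Probe sets of Ncl, Eif4e and Tert were below background.

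Genes commonly repressed by MYC had lower means in 7 of 11 measured members (63.6%), close to the 55.2% of all genes and 65.1% of those above background. The median was -0.03, and it was 0.030 without control 1 and 0.011 without plumbagin 2. Gadd45a, a growth arrest and stress gene, had 8.51 and 9.09 in the controls and 7.54 and 8.67 with plumbagin, a difference of -0.69 ± 0.44 with overlapping groups. Cdkn1b, the inhibitor p27, differed by -0.13 ± 0.09, Cdkn2c, the inhibitor p18, by 0.13 ± 0.23 and Hbp1, a repressor of cell cycle genes, by 0.06 ± 0.10. Their median was -0.04 in number 1 and -0.03 in number 2.

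**Figure D4:**
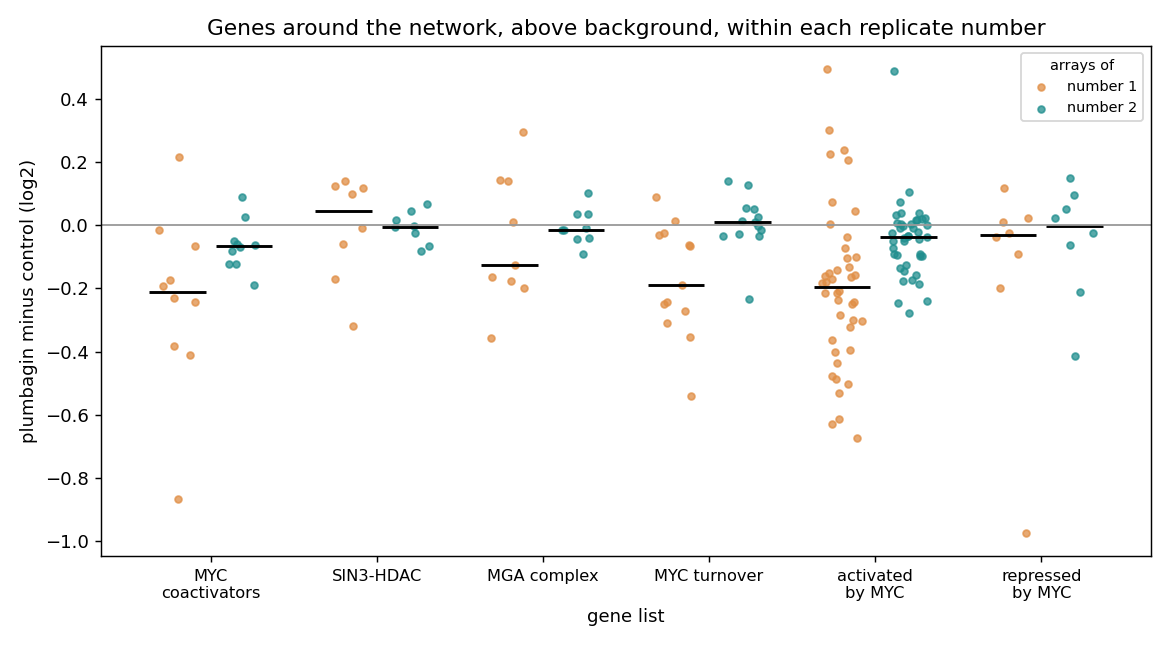
Differences between plumbagin and control (log2, vertical axis) for single genes above background in 6 lists around the network, within number 1 (orange) and number 2 (teal), with a black bar at each median. The median of the activated list is -0.20 in number 1 and -0.04 in number 2.

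Genes with the profile closest to Myc over the 4 arrays were found among 8636 genes above background, by the distance between profiles after subtracting each gene's mean. The closest were P3h2 (distance 0.025), Siah1a (0.026), Mrpl49 (0.035), Dph6 (0.044) and Wipi2 (0.048), where the profile of Myc itself has a length of 0.50. All 5 were lowest in plumbagin 1, which follows from choosing them by profile. P3h2 read 5.80 and 5.997 in the controls and 5.31 and 5.86 with plumbagin. Closest to Mga, which had the largest range, were Vcpip1 (0.050), Kif5b (0.057), Gpbp1 (0.059), Cenpk (0.077) and Senp6 (0.081). These were lowest in control 1, which again follows from the choice. Kif5b read 8.96 and 9.97 in the controls and 9.73 and 9.90 with plumbagin. Likeness over 4 arrays that include an array standing apart describes those arrays alone.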

How the data were processed

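Total RNA of 4 B16F10 samples was hybridized to Affymetrix mouse arrays, 1 per sample. The deposited values are log2 expression per probe set; the submitters' processing notes name Transcriptome Analysis Console, Affymetrix Expression Console and RMA; versions and settings are not given in the sources used here. The RMA step brings the distributions of arrays close to each other, so a shift shared by most genes can be lost. The deposited distributions were not fully equal, with an upper quartile of 6.26 in plumbagin 1 against 6.34 to 6.36 in the other arrays. Of 45141 probe sets, 28898 were annotated to 1 gene; symbols were updated through Entrez numbers (RefSeq, GRCm38.p6), with 1 listed gene found under an older symbol. All 17097 genes were fitted with limma 3.58.1 (lmFit, eBayes) in R 4.3.3, two-sided, with Benjamini-Hochberg adjustment over all genes and a threshold of 0.05. The code was checked on simulated data with independent noise and shifts larger than any difference measured here. Smaller shifts were not simulated. The number of arrays limits the precision.

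The members and lists were chosen with earlier results of these data known. Named were all members, and of each list up to 2 genes per direction with the smallest p above background (lists of 3 whole), plus the 5 profiles nearest to Myc and to the member with the largest range. Ncl, Eif4e, Tert, Cdk4 and Apex1 lie outside this rule and were named after their values were seen. Promoter windows and sequences are from RefSeq. Alternatives were averaging or separately testing probe sets, 2 filters on dim genes, 3 normalizations, 2 variance models, a block on the replicate number, and the omission of each array.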

Additional observations from a re-analysis of the deposited data

How the results depend on the processing

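The count of genes called was 0 under every alternative run, with 25 to 973 genes at an unadjusted limma p under 0.05, and the smallest adjusted p of a member was 0.792 (without plumbagin 2). With the replicate block 0 genes were called as well, and 434 had an unadjusted p under 0.05. Deviations of same-numbered arrays from their group means correlated at 0.54 over genes, but 2 pairs and a shared number do not establish pairing. Of 79 member differences under other settings, 75 kept their sign. The 2 filters, the 2 variance models and the block cannot change a member's difference, so this count overstates its stability. Mxd3 turned to 0.015 with probe sets averaged, 0.0098 after a second quantile normalization and 0.021 after cyclic loess, and Mnt to -0.031 with probe sets averaged. With 1 array left out, 28 of 36 member differences kept their sign, and Myc, Mycn and Mxd4 kept it each time. The ranges were -0.022 to 0.21 for Mycl, -0.17 to 0.0077 for Mxd1, -0.22 to 0.030 for Mxi1, -0.30 to 0.22 for Mxd3, -0.12 to 0.19 for Mnt and -0.17 to 0.87 for Mga. Of 104 list medians under alternatives, 96 moved by less than their spread between replicates. That spread was taken from the list's median level on each array. It exceeded the size of the median difference for every list but the MGA complex and the activated genes. A change of sign could therefore count as no move. The variance models and the block could not move a median, so the count does not show stability. The network's median was 0.077 with cyclic loess and ranged from -0.022 to 0.14 with an array left out, that of the MGA complex from -0.050 to 0.039 and that of the activated genes from -0.17 to -0.027. The causes were not tested. Of 36 differences within a number, 32 moved by less than the gene's SD, but some near 0 changed sign. After cyclic loess, the number 1 difference turned to 0.060 for Mxd1, 0.018 for Mxi1 and 0.029 for Mnt. With probe sets averaged, the number 1 difference turned to 0.00035 for Mxd1 and -0.0045 for Mxd4. Under the same setting the number 2 difference turned to -0.0012 for Mycn and 0.033 for Mycl. Where 1 array of a group was left, its spread was taken from the other group.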

Other observations

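The list of genes activated by MYC was also divided by its promoter letters, a division chosen after the data were seen and given as a description. Of its measured genes, 9 held a CACGTG in a RefSeq window and 29 held none in any window, while 7 had no window given. Genes with an E-box had a lower mean with plumbagin in 6 of 9 cases, with a median of -0.05, and in 0 of 9 did both plumbagin arrays lie below both controls. Genes without one were lower in 24 of 29 cases, with a median of -0.14, and in 7 of 29 both plumbagin arrays lay below both controls. The 7 genes with no window were lower in 6 cases, with a median of -0.20 and 3 apart in this way. Over all genes 15.2% were apart in this way, and over those above background 18.3%. Lower means were found in 55.2% of all genes and in 65.1% of those above background. Eif4e, with an E-box and a higher mean, was below background, as were Ncl and Tert without one. Within number 2 the medians were -0.0097 with an E-box, -0.04 without one and -0.02 with no window, against -0.10, -0.18 and -0.40 within number 1. The genes with an E-box were brighter, with a median log2 level of 9.53 against 7.89. The part of brightness in this gap was not tested.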
